A study of Homo sapiens with 4 samples.

Results

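The transcripts of 9 genes linked to amyotrophic lateral sclerosis (ALS) or frontotemporal dementia (FTD) were examined for crosslinking to poly(PR), a proline-arginine dipeptide repeat protein. The genes were taken by name from the GENCODE 44 annotation, and they are TARDBP, MATR3, TAF15, EWSR1, SFPQ, NONO, ATXN2, VCP and C9orf72, 9 of 62700 annotated genes. All 4 libraries came from HEK293T cells, a transformed human embryonic kidney line, that were transiently transfected with PR100-FLAG, a run of proline-arginine repeats with a FLAG tag. Doxycycline at 150 ng/ml induced the construct for 24 h, and UV light at 160 mJ/cm2 then joined proteins to the RNA in contact with them. The libraries thus share 1 condition, overexpression from a plasmid in a line that is not neuronal. Protein-RNA complexes were purified by SDS-PAGE in replicates 1 to 3 and with beads in replicate 4. Libraries of the control conditions were not analysed here, so background crosslinking was not subtracted, and the RNA levels of the genes were not measured, so a high count can come from an abundant transcript.

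Poly(PR) is made by repeat-associated translation of the antisense RNA of the expanded hexanucleotide repeat in C9orf72, the most frequent genetic cause of ALS and FTD. TDP-43, the product of TARDBP, is a nuclear RNA-binding protein that leaves the nucleus and aggregates in the cytoplasm in most ALS. MATR3 encodes matrin 3, an RNA-binding protein of the nuclear matrix. TAF15 and EWSR1 belong to the FET family of RNA-binding proteins, which carry RGG repeats. SFPQ and NONO belong with PSPC1 to the DBHS family, which forms dimers and builds paraspeckles. ATXN2 encodes ataxin-2, a cytoplasmic RNA-binding protein of stress granules, and VCP encodes an ATPase that unfolds ubiquitylated proteins.

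In iiCLIP the cDNA ends next to the crosslinked nucleotide, and a random barcode separates molecules from PCR copies. A crosslinking event is 1 unique cDNA at 1 position and strand. The libraries held 334057, 604816, 125694 and 179636 events in replicates 1 to 4, and 1 event was worth 2.99, 1.65, 7.96 and 5.57 CPM, the count scaled to the total of the library. The 9 genes held 490, 910, 200 and 356 events. Replicate 3, whose random barcode was 5 nt long against 7 nt in the others, stood apart. Its cDNAs lay on few positions, with 3.03 cDNAs per position in the 9 genes against 1.45, 1.61 and 1.07 in replicates 1, 2 and 4. The number of positions is therefore given beside its counts for several results that rest on them.

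Windows of 30 nt from the exons show what the crosslinked RNA looks like. They are written 5′ to 3′ as the RNA strand in GRCh38, with T for U, and capitals mark GANGA motifs, which are GAAGA and its variants with a G or a C in the middle. The first 7 are, for each of the 7 genes with at least 100 pooled events, the window inside 1 exon with the most events. The last 3 are the windows of the same length with the most events among those that all 4 libraries share, which were found in MATR3, TARDBP and SFPQ. All were chosen by their counts.
SFPQ, exon 6, chr1:35189049-35189078, minus strand: GACGAcagGAAGAattaagacgcatggaag
NONO, exon 7, chrX:71297014-71297043, plus strand: cgccatgagcaccaggtcatgctaatgaga
TARDBP, exon 5, chr1:11020480-11020509, plus strand: acaGAGGAcatgactGAGGAtgagctgcgg
MATR3, exon 12, chr5:139322773-139322802, plus strand: cttgaatctGAAGAtgagctacttgtagat
TAF15, exon 15, chr17:35844760-35844789, plus strand: aggagaccgaggtggaggctatggtggaga
EWSR1, exon 7, chr22:29287042-29287071, plus strand: agcagcctcccactagttacccaccccaaa
ATXN2, exon 9, chr12:111518396-111518425, minus strand: aaaataaatatattcctcctggacaaagaa
MATR3, exon 12, chr5:139322885-139322914, plus strand: ctgatgggaaaaaggaaccatcagataaag
TARDBP, exon 4, chr1:11018815-11018844, plus strand: tgtcacagcgacatatgatagatgGACGAt
SFPQ, exon 1, chr1:35193099-35193128, minus strand: ttttgtgagaagcaaggtggcctccacgtt

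The first 7 windows lie in coding sequence, and those of SFPQ, TARDBP and MATR3 hold a motif while those of NONO, TAF15, EWSR1 and ATXN2 do not. The SFPQ window held 28 events (6, 19, 0 and 3 in replicates 1 to 4) and the NONO window 22 (0, 16, 0 and 6). The TAF15 window held 13 events (0, 5, 8 and 0), the TARDBP window 11 (1, 0, 8 and 2), and the MATR3 and EWSR1 windows 9 each (0, 0, 6 and 3, and 0, 6, 0 and 3). The 8 events of replicate 3 in the TAF15 window lay on a single position. The ATXN2 window held 10 events (0, 1, 9 and 0), so it rests almost entirely on replicate 3. None of these 7 windows held events of all 4 libraries. Of the windows that all 4 libraries share, that of MATR3 held 9 events (1, 2, 3 and 3), as many as its first window, and no motif. That of TARDBP held 10 events (1, 6, 1 and 2) and 1 motif. That of SFPQ, in the 5′ UTR of the canonical transcript, held 16 events (2, 6, 6 and 2) and no motif. The 6 events of replicate 3 in the SFPQ window lay on a single position. Over all transcripts, the rule used for the regions below, SFPQ had 5 events in 5′ UTRs (2, 2, 0 and 1). Most events of this window are therefore counted there under another region.

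Over whole genes, SFPQ was the most crosslinked of the 9 and C9orf72 the least. The 9 genes together took 1467, 1505, 1591 and 1982 CPM in replicates 1 to 4, a mean of 1636 ± 236 CPM (SD, n = 4). SFPQ held 542 pooled events and ranked 65th of all genes and 50th of the 20046 protein-coding genes. TAF15 followed with 329 events at rank 241 of all genes, and MATR3 and ATXN2 shared rank 505 with 239 events each. NONO held 224 events (rank 591), EWSR1 149 (rank 1402), TARDBP 122 (rank 1912), VCP 81 (rank 3345) and C9orf72 31 (rank 7864). The pooled median was 224 events for the 9 genes and 15 for all protein-coding genes.

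**Figure D1:**
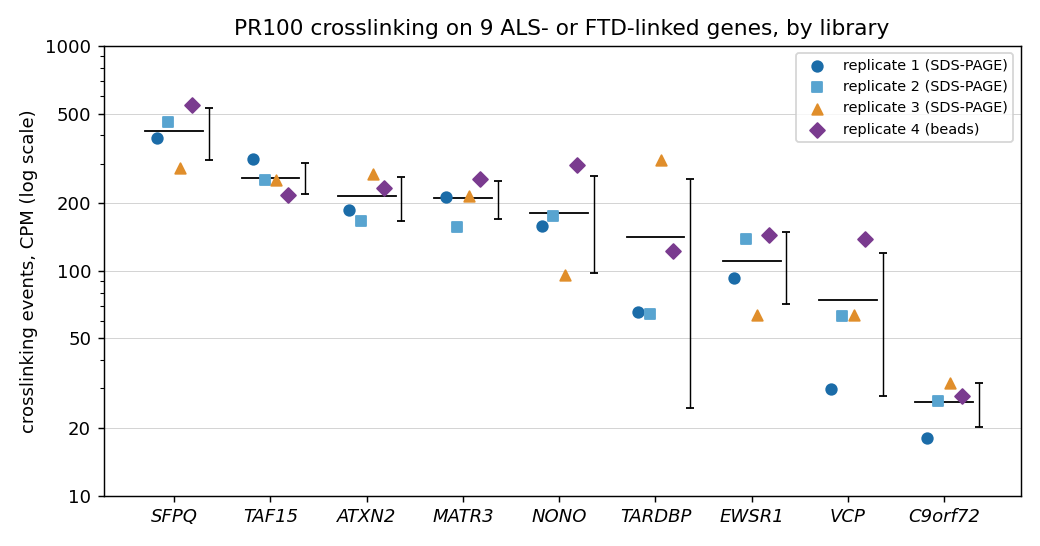
Crosslinking events on each gene in CPM (log axis). Points are the 4 libraries, horizontal lines the mean, and bars 1 SD over the 4 libraries. SFPQ lies highest in replicates 1, 2 and 4, TARDBP is highest in replicate 3, and C9orf72 stays between 18.0 and 31.8 CPM.

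At least 200 pooled events, the minimum used in the study for a highly bound gene, were found in 5 of the 9 genes, against 1.22% of all genes and 3.51% of protein-coding genes. These 5 were SFPQ, TAF15, MATR3, ATXN2 and NONO. The study also required low binding in its non-crosslinked and FLAG-only controls, and that condition was not applied here. The margin was small for all but SFPQ: SFPQ and TAF15 were left without replicate 1 or without replicate 4, SFPQ alone without replicate 2, and 2 genes when each position counted once. A rank in the top 5% of protein-coding genes in every library was held by 4 of the 9 (SFPQ, TAF15, MATR3 and ATXN2), against 1.88% of protein-coding genes. When genes were ranked by events per kb of exons, 1 of the 9 had this rank in all 4 libraries, against 1.64% of protein-coding genes. A significant pooled cluster of crosslinked positions, called in the study at a false discovery rate of 0.05, overlapped 8 of the 9 genes, all but C9orf72, against 11.3% of protein-coding genes. These 8 genes held 29 clusters with 545 cDNAs, 27.9% of the events of the 9 genes. Of the 29 clusters, 24 lay mostly in coding sequence and 9 held events of all 4 libraries.

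The region of an event was taken as coding sequence, 3′ UTR, 5′ UTR, exon of a transcript without coding sequence, or intron, in that order, over all transcripts of the gene. Coding sequence held 40.0%, 52.5%, 56.5% and 66.6% of the events of the 9 genes in replicates 1 to 4, against 19.2%, 31.0%, 23.7% and 41.6% in all other protein-coding genes. The coding share was higher in the 9 genes in 4 of 4 libraries, by 25.0 ± 5.48 percentage points (SD, n = 4; exact two-sided permutation test that flips the signs of the library differences, p = 0.13, the smallest p that 4 libraries allow). Introns held 25.1 ± 9.55% of the events of the 9 genes and 54.3 ± 11.8% of those of the other genes, lower in 4 of 4 libraries (SD, n = 4; exact permutation test, p = 0.13). The 3′ UTR shares were 9.51 ± 0.763% and 10.3 ± 1.81% and overlapped between the sets (SD, n = 4; exact permutation test, p = 0.625). Exons of transcripts without coding sequence, such as those that retain an intron, held 9.93 ± 2.73% of the events in the 9 genes and 3.35 ± 0.211% in the others. 5′ UTRs held 1.59 ± 0.769% and 3.21 ± 0.745%, an order that turned around when only the canonical transcript was used (2.97% in the 9 genes, 0.622 points above the others). The labels do not state that the libraries came from separate cultures, so the p-values measure only the spread between these libraries, which may be technical.

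Per length of coding sequence the order changed. SFPQ was first with 138 ± 55.8 CPM per kb (SD, n = 4). TARDBP (68.8 ± 84.2), NONO (53.6 ± 40.9), MATR3 (49.3 ± 26.3) and TAF15 (45.7 ± 11.4 CPM per kb) followed, and no neighbours from SFPQ to TAF15 kept their order in all 4 libraries (exact permutation tests, p = 0.375 to 1). The place of TARDBP rests on replicate 3 (7.57, 19.9, 191 and 56.3 CPM per kb in replicates 1 to 4). Without that library its mean was 27.9 CPM per kb, below NONO, TAF15, MATR3 and EWSR1. TAF15 lay above EWSR1 (26.4 ± 17.2) in 4 of 4 libraries, by 19.3 ± 9.81 CPM per kb (SD, n = 4; exact permutation test, p = 0.13). EWSR1, ATXN2 (15.4 ± 8.59) and VCP (12.4 ± 4.62 CPM per kb) did not keep one order either, and VCP lay above C9orf72 (2.67 ± 3.51 CPM per kb) in 4 of 4 libraries. Over all protein-coding genes the median was 1.19 and the 95th percentile 21.1 CPM per kb, so 6 of the 9 genes lay past that percentile. Coding sequence was crosslinked more densely than intron in each of the genes, for example 48.7 against 1.17 pooled events per kb in TARDBP and 14.5 against 0.575 in VCP. This was not particular to the 9 genes. In the other protein-coding genes with at least 200 pooled events the medians were 18.9 and 1.07 per kb, with a median ratio of 15.3. The ratio was near that in MATR3 (15.7) and ATXN2 (15.2), lower in C9orf72 (6.10) and higher in the other members.

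TARDBP (ENSG00000120948, chr1:11012344-11030528, plus strand) differed most between libraries, with a ratio of highest to lowest CPM of 4.81. It held 22, 39, 39 and 22 events in replicates 1 to 4, or 65.9, 64.5, 310 and 122 CPM, and its rank among all genes was 3562, 3144, 163 and 1591. Replicates 1 and 2 were level, and replicate 3 was the highest by far. Without replicate 3 the mean fell from 141 to 84.3 CPM. The events of replicate 3 were less stacked here: 39 events lay on 24 positions, 1.63 cDNAs per position, against 161 events on 42 positions in the other 8 genes, 3.83 per position.

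The region of the TARDBP events also differed between libraries. Coding sequence held 4, 19, 38 and 16 events, and the 3′ UTR held 13, 15, 0 and 2. In replicate 1 the 3′ UTR thus held more events than coding sequence, whereas in replicate 3 all but 1 intronic event were coding. A GFP-TDP-43-FLAG construct, which would carry TARDBP coding sequence, was run as a positive control on the gel of the study, and whether it bears on replicate 3 was not tested. The 2 TARDBP clusters held events of all 4 libraries. One covered 98 nt of exon 4 (chr1:11018747-11018844, 15 cDNAs, 1, 7, 4 and 3 in replicates 1 to 4), and the other 146 nt of exon 5 (chr1:11020448-11020593, 20 cDNAs, 1, 2, 12 and 5). Both exons encode parts of the RNA recognition motifs of TDP-43. Exon 5 was the densest exon by pooled events, with 18.7% of the exonic events in 4.09% of the transcript. Its lead over exon 4 (117 against 106 events per kb) rests on replicate 3, which gave 12 of its 20 events.

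**Figure D2:**
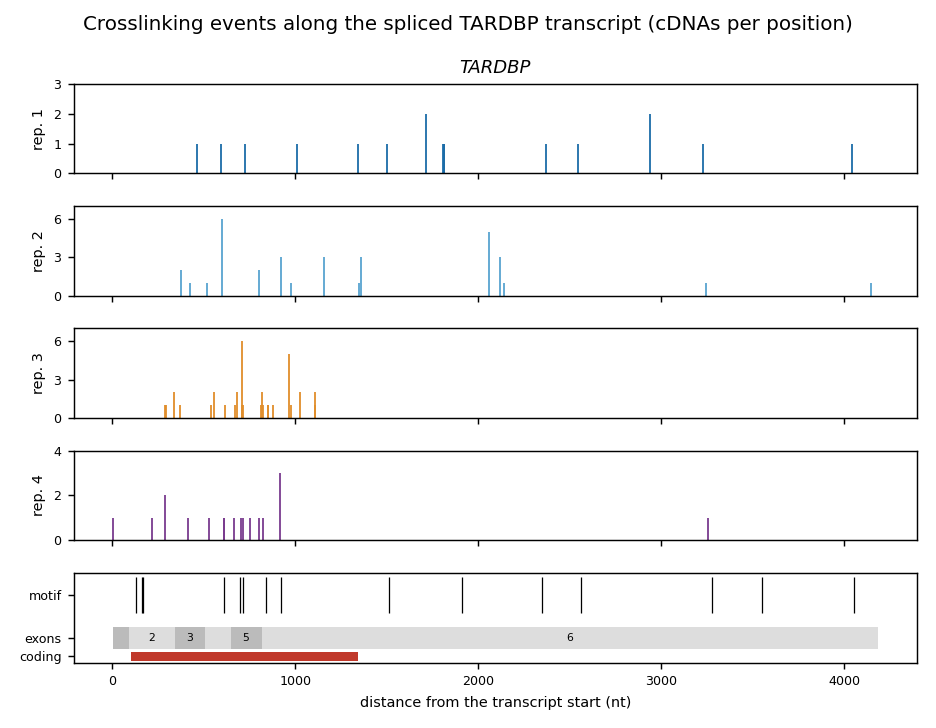
Events at each position of the spliced TARDBP transcript (cDNAs, one panel per library, own vertical scale each), with GANGA motifs, exons and coding sequence at the bottom. Replicate 3 has events only in the coding part (38 of its 39 events on the gene, the other being intronic), while replicates 1 and 2 continue into the 3′ UTR of exon 6.

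MATR3 (ENSG00000015479, chr5:139293674-139331677, plus strand) was steadier, with 71, 95, 27 and 46 events, or 213, 157, 215 and 256 CPM. A second annotated MATR3 gene that starts further upstream holds the same 239 events and 298 in all, so the 2 entries cannot be told apart over the shared span. Coding sequence held 124 events and introns 77. Exon 12, of 370 nt, held 52 events (9, 13, 12 and 18 in replicates 1 to 4), 37.7% of the exonic events in 7.30% of the transcript, and all 4 libraries contributed. Exon 12 is rich in purines, 65.4% against 51.9% of the transcript, and holds 7 GANGA motifs. The single significant cluster lay further downstream at chr5:139325434-139325545, with 16 cDNAs (4, 5, 3 and 4 in replicates 1 to 4).

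TAF15 (ENSG00000270647, chr17:35809482-35864615, plus strand) held 105, 153, 32 and 39 events, or 314, 253, 255 and 217 CPM, the smallest ratio of highest to lowest library (1.45) among the 9 genes. Its events were divided between coding sequence (127), introns (121) and exons of transcripts without coding sequence (72). Intron 7 of the canonical transcript, of 9708 nt, held 117 events (50, 47, 12 and 8), 59.4% of the events outside its exons in 18.3% of that length. Part of this intron is exon in other transcripts. Of the TAF15 events, 29 lie also in the long non-coding gene ENSG00000270894 on the same strand. In the exons, exon 15, of 562 nt, which encodes RGG repeats, held 52 events (7, 33, 8 and 4), and a cluster of 26 cDNAs in it (chr17:35844786-35844873) held all 4 libraries. The 8 events of replicate 3 in this cluster lay on a single position. The TAF15 transcript carries 24 GAGGA among its 30 GANGA motifs, 13.9 motifs per kb, the highest density among the 9 genes.

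EWSR1 (ENSG00000182944, chr22:29268009-29300525, plus strand) held 31, 84, 8 and 26 events, or 92.8, 139, 63.6 and 145 CPM. The 8 events of replicate 3 lay on 2 positions, 7 of them on 1 position in intron 8 of the canonical transcript, where another transcript has an exon. Exon 7 had the most exonic events (20, with 1, 11, 0 and 8 in replicates 1 to 4) and a cluster of 20 cDNAs, although it holds no GANGA motif. Exon 16 held 17 events (1, 13, 0 and 3), so most of them came from 1 library.

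SFPQ (ENSG00000116560, chr1:35176378-35193446, minus strand) held 130, 278, 36 and 98 events, or 389, 460, 286 and 546 CPM, and ranked 112th, 45th, 214th and 74th of all genes. Coding sequence held 382 events (81, 194, 23 and 84), and by coding events SFPQ ranked 26th of protein-coding genes. It carried 12 of the 29 clusters, with 49.1% of its events in them. Of its 320 crosslinked positions, 35 (10.9%) were found in at least 2 libraries, against 2.42% in the other protein-coding genes with at least 200 events. These shares were not matched for event density, which was 173 coding events per kb in SFPQ and a median of 18.9 in those genes. Exon 6, of only 85 nt (chr1:35189003-35189087), held 58 events (9, 33, 0 and 16), or 682 events per kb against 112 over the transcript. Of these events, 94.8% lay near a GANGA motif, and 69.4% of the bases of the exon were purines. The exon holds 3 GANGA motifs in its 85 nt, so many of its positions lie near one. The share of its own positions near a motif was not computed, so an excess within the exon was not tested. The share of events was lower in other densest exons, such as exon 9 of NONO (56.5%) and exon 10 of TAF15 (23.5%). Replicate 3 had no event in exon 6 of SFPQ. It had 36 events on 9 positions of the gene.

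NONO (ENSG00000147140, chrX:71254814-71301522, plus strand) held 53, 106, 12 and 53 events, or 159, 175, 95.5 and 295 CPM. Coding sequence held 27, 56, 1 and 31 events and the 3′ UTR 17, 22, 11 and 17. By 3′ UTR events NONO ranked 80th of protein-coding genes, and by coding events 303rd. Introns, here the 35487 nt that are exon in no transcript, held 10 events. The introns of the canonical transcript held more, with 13 events in intron 2 and 11 in intron 9, in part where other transcripts have an exon. Exon 9 was the densest exon, with 23 events (11, 8, 0 and 4) in 103 nt, 223 per kb, and 69.9% purines. The 5 clusters of NONO were all mostly coding.

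SFPQ and NONO were alike in where the coding events lay. The coding sequence was cut into 5 equal parts, and the fourth held 129 of 362 SFPQ events (35.6%; 37, 62, 0 and 30 in replicates 1 to 4) and 58 of 115 NONO events (50.4%; 12, 28, 0 and 18). In PSPC1 the fourth part held 16 of 49 events (32.7%), but only 3 of 23 in replicate 2. MATR3, which is not of this family, also had its highest share there (41 events, 33.1%). After alignment of the proteins (63.4% identity between SFPQ and NONO over the aligned part), the stretch of NONO that matches SFPQ exon 6 held 13 events (1, 4, 0 and 8), or 149 per kb against 81.4 over the NONO coding sequence. Of the NONO coding events it held 8 of 31 in the beads library, but only 1 of 27 in replicate 1 and 4 of 56 in replicate 2. The matching stretch of PSPC1 held 6 events, 69.0 per kb against 31.2. In the other direction, the stretch of SFPQ that matches NONO exon 9 held 26 events, 217 per kb against 171 over the coding sequence. These stretches were chosen after their counts were seen. In coding CPM per kb the order was SFPQ, NONO and PSPC1 (25.2 ± 26.6; SD, n = 4) in 4 of 4 libraries, and SFPQ lay 84.0 ± 19.5 above NONO (SD, n = 4; exact permutation test, p = 0.13). In replicate 3 the order of NONO and PSPC1 rests on 1 coding event against 0.

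**Figure D3:**
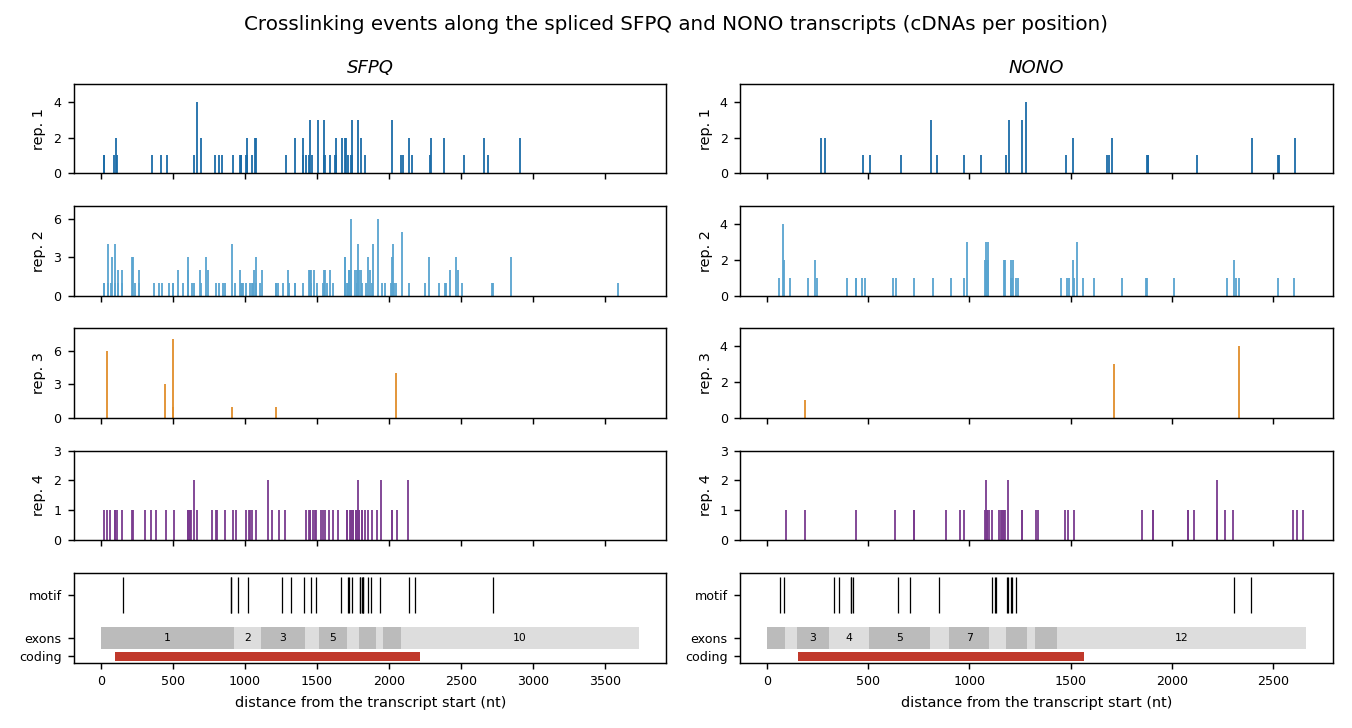
Events at each position of the spliced SFPQ and NONO transcripts (cDNAs, one panel per library, own vertical scale each), with GANGA motifs, exons and coding sequence at the bottom. In replicates 1, 2 and 4 the fourth of 5 equal parts of both coding sequences holds more events than any other part. Replicate 3 has few positions in either gene.

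ATXN2 (ENSG00000204842, chr12:111443485-111599676, minus strand) held 62, 101, 34 and 42 events, or 186, 167, 270 and 234 CPM. By pooled counts over all transcripts, it was the only gene of the 9 above 200 events with more intronic (139) than coding (70) events. TAF15 had a higher intronic than coding share in replicates 1 and 3, but not in replicates 2 and 4. At 156192 bp ATXN2 is also the longest of the 9. Intron 1, of 42864 nt, held 89 events (28, 38, 11 and 12), 52.4% of the events outside the exons in 28.2% of that length. In replicate 3, 34 events lay on 6 positions, and the ATXN2 clusters, of 10 cDNAs each, took 9 and 8 of their cDNAs from that library.

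VCP (ENSG00000165280, chr9:35053928-35072668, minus strand) held 10, 38, 8 and 25 events, or 29.9, 62.8, 63.6 and 139 CPM. A single position accounted for much of this: chr9:35072276 held 19 events (2, 2, 2 and 13 in replicates 1 to 4), 23.5% of the pooled events of the gene and 52.0% of those of the beads library. The position is 61 nt downstream of exon 1, in the first intron of the canonical transcript and in an exon of 1 other transcript. The surrounding 30 nt hold no GANGA motif and are shown because all 4 libraries had events there.
VCP, chr9:35072252-35072281, minus strand: gcagggtaggcccggcggggcctggccgtg
Of the 81 VCP events, 38 lie also in the overlapping gene ENSG00000288699 on the same strand, and 43 in no other gene. Coding sequence held 42 events (6, 22, 5 and 9).

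C9orf72 (ENSG00000147894, chr9:27535640-27573866, minus strand) held 6, 16, 4 and 5 events, or 18.0, 26.5, 31.8 and 27.8 CPM, and it had no significant cluster. These counts are near the limit of the depth, since a count of 0 allows up to 3 events, worth 4.96 to 23.9 CPM in a single library. Over all transcripts, introns held 17 events and coding sequence 5. Only intron 8 (2 events) and intron 6 (7) of the canonical transcript held events, and intron 6 is exon in another transcript. Most of the 17 intronic events therefore lay outside the canonical transcript. On the opposite strand, which gives rise to the antisense RNA, 1 event was found, in replicate 1. The hexanucleotide that expands in disease was found 3 times in a row in the reference genome, 48 nt upstream of the start of the canonical transcript and in an intron of 4 of the 8 annotated transcripts.
C9orf72, chr9:27573529-27573546, minus strand: GGGGCCGGGGCCGGGGCC
Capitals here mark the repeat units. No event of either strand lay within 500 nt of it, and the nearest was 6687 nt away. Intron 1 of the canonical transcript, of 6266 nt, had 0 events. The number of repeats that HEK293T cells carry was not measured, and reads that map to several places were not kept, so a signal on the repeat itself could be missed.

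In the exons of the canonical transcripts, events of the 9 genes lay near GANGA motifs more often than the exonic positions did. The study derived GAAGA from its PR100-FLAG crosslinking sites, over the range used below and against other positions of the same genes. An excess here is therefore not independent evidence for the motif. A motif starting between 5 nt upstream and 30 nt downstream was found for 28.5%, 35.4%, 27.5% and 35.6% of the exonic events in replicates 1 to 4, against 17.9 ± 1.48% (SD, n = 4) of the positions of the same transcripts. For this position share, each gene was weighted by its exonic events in the library. The difference was 13.8 ± 3.82 points and positive in 4 of 4 libraries (SD, n = 4; exact permutation test as above, p = 0.13). Within coding sequence alone it was 9.14 points. For GAAGA alone it was 6.78 ± 6.73 points and positive in 3 of 4 libraries (SD, n = 4; exact permutation test, p = 0.25), with −1.73 points in replicate 3. The other 697 protein-coding genes with at least 200 events had a difference of 9.52 ± 2.15 points (SD, n = 4). The 9 genes lay above them by 4.29 ± 3.27 points, in 3 of 4 libraries (SD, n = 4; exact permutation test, p = 0.25), so the nearness to motifs was not shown to be particular to them.

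The genes differed among themselves. TARDBP had the largest pooled difference, 35.5% of 107 exonic events against 11.5% of positions, and it was positive in 4 of 4 libraries. TAF15 (66 of 132 events, against 31.2% of positions) and MATR3 (34.1% against 16.6%) were also positive in 4 of 4. In replicate 3, however, 8 of the 10 exonic TAF15 events lay on a single position. The 27 MATR3 events of that library lay on 7 positions. SFPQ had 35.1% against 18.1% and was positive in 3 of 4 libraries, and NONO had 33.3% against 17.9% and was positive in 2 of 4. In replicate 3, SFPQ and NONO had 23 and 8 exonic events on few positions, none of them near a motif. EWSR1 had 30.8% against 22.1%, positive in 2 of 4, with only 1 exonic event in replicate 3. ATXN2 (8.70% of 69 events against 9.50%) and VCP (7.69% of 52 events against 15.3%) showed no excess. Among the 465 other genes with at least 50 exonic events, 86.5% had a positive pooled difference, with a median of 7.54 points, and 6 of the 8 members of that depth were positive. These differences are over whole transcripts. Within coding sequence alone the pooled difference was 26.0 points in TARDBP, 15.3 in TAF15, 14.4 in NONO and 9.79 in SFPQ. It was 7.84 in MATR3, 6.10 in EWSR1, 0.194 in ATXN2 and −12.8 in VCP.

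The crosslinked base itself was U in 29.6 ± 3.51% of the exonic events, against 25.6 ± 1.22% of the bases of the transcripts, higher in 4 of 4 libraries (SD, n = 4; exact permutation test, p = 0.13). The same held in the other 697 genes (30.1% against 23.8%). The base share of the transcripts was taken for each library and ran from 24.6% to 27.4% in the 9 genes.

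The beads library gave a higher CPM than each SDS-PAGE library in 5 of the 9 genes (MATR3, VCP, EWSR1, SFPQ and NONO), against 43.4% of the protein-coding genes with at least 200 events, and without replicate 3 in 8 of the 9, against 50.8% of those genes. Only 1 library was made with beads, so the purification and the library cannot be told apart. The genes whose CPM over the 4 libraries were closest to those of members, by distance of log2 CPM among 702 genes with at least 200 events, were KMT2A for SFPQ (389, 375, 302 and 579 CPM), CDC42BPA for TAF15, GOLGB1 for MATR3, SRSF1 for ATXN2 and PRPF38B for NONO.

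Among 35 other genes linked to ALS or FTD or related to the members, the median was 33 pooled events, against 224 for the 9 genes. CAMTA1, a transcription activator, held 590 events, of which 94.9% were intronic, and HNRNPA2B1, an RNA-binding protein gene, held 491, of which 55.0% were coding. NEK1, a kinase, held 192 events, just below the minimum of 200. SOD1, a superoxide dismutase, held 20 events, and PRPH and NEFH, neuronal intermediate filament genes, held 0 and 1.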

How the data were processed

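The authors collapsed reads by random barcode, mapped them with STAR (version not given in the sources used here) to GRCh38 with Gencode 27, allowing 2 mismatches and keeping unique hits, and deposited raw counts, the number of unique cDNAs at each stranded position. The deposited clusters carry summed counts of positions significant in iCount at a false discovery rate of 0.05.

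Here, counts on the strand of each GENCODE 44 gene were summed for each of the 4 libraries and divided by the library total (CPM). An event counted for every gene that spans it. Regions, motifs and exact permutation tests that flip the signs of library differences (two-sided, smallest p 0.13) were computed with Python 3.11.15, numpy 2.4.6 and Biopython 1.88 (protein alignment). Labelling of 19872 positions in 200 genes was tested on simulated data, with 0 errors. The depth was 125694 to 604816 events per library, and count limits cover counting error only.

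The 9 members were always reported. Relatives and other ALS genes came from fixed lists, of which some genes are not reported here. Densest exons and windows were picked by counts. Members and lists were chosen with earlier results of these data known. Alternatives changed counting, thresholds, regions, motif settings and libraries. They gave 78 planned values and 56 of alternatives added after seeing the data, which are the CPM of each gene and the second MATR3 gene. The coding density without replicate 3 was also added then.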

Additional observations from a re-analysis of the deposited data

Results flagged for a closer look

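Of 47 shares and levels examined over 4 libraries, 3 had 1 library far from the others by Dixon's criterion. Chance flags about 1 in 20. All 3 are replicate 3, and all rest on few positions. In EWSR1, 87.5% of the 8 events of replicate 3 lay in exons of transcripts without coding sequence, against 12.9% to 19.2% in the other libraries. In NONO, 8.33% of the 12 events of replicate 3 were coding, against 50.9% to 58.5%, and 91.7% lay in the 3′ UTR, against 20.8% to 32.1%. The NONO events of replicate 3 lay on 4 positions and the EWSR1 events on 2.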

How the results depend on the processing

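The coding and intron differences from other genes and the excess near GANGA motifs kept the direction of their means under every alternative run. The summed CPM became 1080 when each position counted once. The count of genes with at least 200 events became 2 with each position once, 1 at a minimum of 400, and 1 to 5 with 1 replicate left out. The top 5% count became 1 per kb of exons, and the count of genes with a cluster became 5 with the clusters of single libraries. The 3′ UTR share was 9.27 to 9.77% with 1 replicate left out (above the other genes by 0.0995 points without replicate 4). With the canonical transcript it was 6.72%, the 5′ UTR share 2.97% (reversed against the other genes) and the intron share 38.6%. The excess near motifs was 6.78 points for GAAGA alone (positive in 3 of 4 libraries) and 9.14 in coding sequence. The beads count was 5 to 8 with 1 SDS-PAGE replicate left out (8 without replicate 3), and leaving out replicate 4 gives no value. C9orf72 held 15 to 27 events with 1 replicate left out, 15 without replicate 2. The causes were not tested. No paired analysis was possible because all libraries belong to 1 group. Depth limits single positions and the smaller genes.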
